A study of Mus musculus with 8 samples.

Results

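The ATP-binding cassette (ABC) transporter family was followed in cultured mouse adipocytes in which microRNAs had been blocked during differentiation. Its members were taken by symbol, as the genes whose names begin with Abc, a subfamily letter from a to g and a digit, and they numbered 36 of the 18933 genes in the authors' tables. ABC proteins use ATP at a pair of nucleotide-binding domains, mostly to move lipids, drugs, conjugates, peptides or metal-containing cofactors across membranes. Full transporters carry the whole machine in one chain, shorter ones work as pairs, and the E and F subfamilies have no membrane part and act in translation. In fat cells the family is best known for cholesterol export, which handles the large sterol store of the lipid droplet, and for bringing fatty acids into peroxisomes.

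The 4 groups, of 2 samples each, were cultures transfected with a locked nucleic acid (LNA) inhibitor of miR-182, of miR-203 or of miR-708, and a control transfection whose content the labels do not give. Such an inhibitor is a short modified oligonucleotide that pairs with a microRNA and blocks it, and it was used at 100 nM. All groups were stromal vascular cells from digested mouse fat, put back into full medium 8 h after transfection, and all were collected at day 4 of a differentiation started with rosiglitazone, 3-isobutyl-methylxanthine, dexamethasone and insulin. The strain, age and fat depot are not given in the labels, although the series title speaks of brown adipocytes, and nothing says whether the 2 samples of a group were separate cultures. Levels are FPKM, fragment numbers scaled for transcript length and library size, which can be set side by side between genes. Each group has 1 pooled value per gene, so no value carries a replicate error, and the spread behind the deposited p-values may be technical. The words rose and fell are kept for genes whose q-value, the p-value adjusted for many tests, is below 0.05 in the authors' deposited table.

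The adipocyte markers fitted the label. All 6 (Adipoq, Fabp4, Plin1, Cidec, Lipe and Pparg) stood at 130.1 FPKM or more in every group, and their summed level was 39300 FPKM with the miR-182 inhibitor, 41831 FPKM with the miR-203 inhibitor, 47465 FPKM with the miR-708 inhibitor and 41553 FPKM in control cultures. Fabp4 made up most of each sum, at 34042, 37047, 42888 and 37475 FPKM in that order. With the miR-182 inhibitor, 3 of the 6 lay above the control and 3 below. Adipoq rose there, to 1904 FPKM against 1178 FPKM in control cultures, the only call on this list in any comparison. It makes 16.7% of the list for miR-182, beside 14.6% of all tested genes. Of the 4 brown fat markers (Ucp1, Cidea, Cox7a1 and Cox8b), the authors' deposited tables called 4, 2 and 2 lower with the miR-182, miR-203 and miR-708 inhibitors, and their sum was 1361, 2072 and 2032 FPKM against 2573 FPKM in control cultures. Of 5 precursor and fibroblast markers (Pdgfra, Pdgfrb, Ly6a, Col1a1 and Col3a1), 5, 5 and 4 rose, and their sum was 1597, 1285 and 1203 FPKM against 772 FPKM in control cultures. Over all tested genes, 6.23%, 2.51% and 3.05% were called lower and 8.4%, 4.72% and 4.51% higher in the miR-182, miR-203 and miR-708 comparisons. In such bulk RNA, fewer cells of a type and less RNA per cell cannot be told apart, here and in every result that follows.

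The blocked microRNAs are shown first because their seeds, bases 2 to 8 counted from the 5′ end and given in capitals, set which messages they can pair with. The sequences are those of RefSeq on GRCm38.p6, at chr6:30165962-30165986 (minus strand), chr12:112130927-112130948 (plus strand) and chr7:96249450-96249472 (plus strand). The labels do not name the arm that each inhibitor blocks, and the arms below are the ones taken here.
mmu-miR-182-5p: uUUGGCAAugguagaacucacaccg
mmu-miR-203-3p: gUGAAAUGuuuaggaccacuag
mmu-miR-708-5p: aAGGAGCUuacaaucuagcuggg
No 2 of the 3 share a seed. The matching sites in a message read TTGCCAA for miR-182, CATTTCA for miR-203 and AGCTCCT for miR-708.

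For each microRNA, most family members, like most tested genes, carried no such site in the 3′ untranslated region (UTR). The UTR is the part of a message after the stop codon where microRNAs mostly bind. A miR-182 site was present in 3 of 32 tested members (9.38%) and in 10.4% of the 12120 tested genes with an annotated UTR. For miR-203 the numbers were 5 of 31 members (16.1%) and 14.8% of 12064 genes, and for miR-708 they were 6 of 32 members (18.8%) and 13.4% of 12045 genes. The median UTR length was 1174 bases for the members tested in the miR-182 comparison and 925 bases for all genes tested there, and a longer UTR holds more matches by length alone.

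Over all called genes with an annotated UTR, a miR-182 site was held by 10.27% of those called higher and 10.3% of those called lower. The shares were 15.43% and 14.8% for miR-203, and 10.93% and 13.51% for miR-708, each in its own comparison. Among the 6 members that the authors called in any comparison, Abcg2 and Abcc4 held sites and Abcb1a, Abca5, Abca9 and Abcb9 held none. The sites of these called members and of Abcf1, whose UTR has a repeated site, are given with 10 bases on each side and the match in capitals (GENCODE M21 transcripts, GRCm38). In the order listed they lie at chr6:58693462-58693488, chr6:58693555-58693581 and chr6:58695552-58695578 (plus strand), chr14:118483482-118483508 (minus strand), and chr17:35957380-35957406 and chr17:35957320-35957346 (minus strand).
Abcg2, miR-182: agtgtggctaTTGCCAAagcactcggg
Abcg2, miR-203, upstream: ccttgcttcgCATTTCAttttaaaaca
Abcg2, miR-203, downstream: attatcagttCATTTCAtttatccatt
Abcc4, miR-708: cagaaggtaaAGCTCCTattggctgtg
Abcf1, miR-708, upstream: tgctgcaaccAGCTCCTatggctggag
Abcf1, miR-708, downstream: tgctgcaaccAGCTCCTacggctggag
A match is a description of letters and not a measured binding site. Abcg2 rose with the miR-182 inhibitor and was not called with the miR-203 inhibitor, whereas Abcc4 fell with the miR-708 inhibitor. Abcg2 also rose with the miR-708 inhibitor, for which its UTR held no site. Abcc4 also fell with the miR-182 and miR-203 inhibitors, for which its UTR held no site. The part of any site in these values was not tested. Other members with a site, none of them called in the comparison of that site's microRNA, included Abcb10 and the untested Abcc9 for miR-182, Abca1, Abcb6, Abce1 and the untested Abcc2 for miR-203, and Abcb10, Abcc1 and Abcc2 for miR-708.

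In control cultures the 36 genes ranged from 0.0551 to 175 FPKM with a median of 7.48 FPKM, and 26 of them stood at 1 FPKM or more. The highest was Abcd3, the peroxisomal membrane protein PMP70 that imports fatty acids and bile acid intermediates, at 144, 159 and 147 FPKM with the miR-182, miR-203 and miR-708 inhibitors and 175 FPKM in control cultures. Next in control cultures came Abcc5, an exporter of cyclic nucleotides and glutamate conjugates, at 82.6 FPKM, the translation factor Abcf3 at 64.2 FPKM and the cholesterol exporter Abca1, also at 64.2 FPKM. Abcb8 (52.0 FPKM), Abcf1 (43.3 FPKM), Abce1 (40.1 FPKM) and Abcg1 (40.02 FPKM) completed the first 8. Pooled values have no spread, so neighbours in this order cannot be separated. At the other end, 9 members stayed below 1 FPKM in every group, namely Abca4, Abcg4, Abca6, Abca8b, Abca9, Abcb1b, Abcb5, Abcc3 and Abcc9. The sum over the family was 731, 713 and 711 FPKM with the miR-182, miR-203 and miR-708 inhibitors, against 749.6 FPKM in control cultures.

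**Figure D1:**
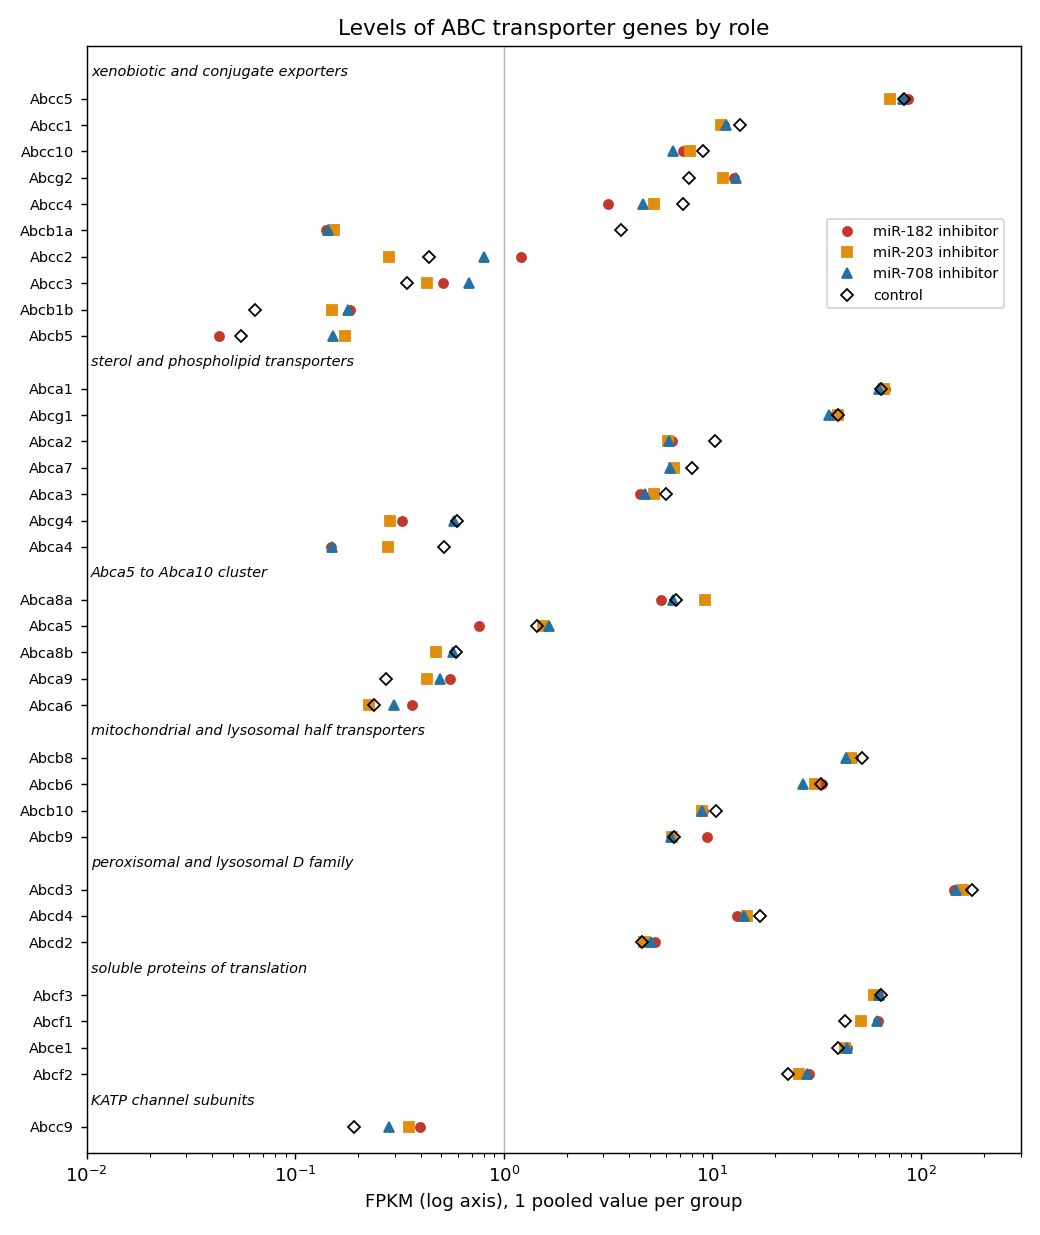
FPKM on a log axis for 34 ABC transporter genes, grouped by role, with 1 pooled value for each of the 3 inhibitor groups (filled symbols) and for control cultures (open diamonds); the vertical line marks 1 FPKM. For most genes the 4 symbols lie close together, whereas Abcb1a has its inhibitor values between 0.140 and 0.153 FPKM and its control value at 3.64 FPKM.

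With the miR-182 inhibitor, 32 members were tested, and 3 rose (Abcg2, Abcb9 and Abca9) and 3 fell (Abcb1a, Abcc4 and Abca5). That is 18.8% of the members tested, beside 14.6% of all 14391 tested genes (8.4% higher and 6.23% lower). With the miR-203 inhibitor, none of 31 tested members rose and 2 fell (Abcb1a and Abcc4), 6.45% beside 7.23% of all tested genes (4.72% higher and 2.51% lower). With the miR-708 inhibitor, 2 of 32 rose (Abcg2 and Abca9) and 2 fell (Abcb1a and Abcc4), 12.5% beside 7.56% of all tested genes (4.51% higher and 3.05% lower). With so few members, these shares are not read as differing from those of all genes. The 3 comparisons use the same control cultures, so a value particular to those cultures enters all of them.

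The median log2 ratio of measured members, those tested and at 1 FPKM or more in either group, was -0.052 with the miR-182 inhibitor (27 members), -0.096 with the miR-203 inhibitor (26 members) and -0.094 with the miR-708 inhibitor (26 members). This ratio is log2 of inhibitor over control after adding 1 FPKM to each, which understates the change of low genes. The medians of all measured genes were -0.014, -0.012 and -0.019. The members' medians depend on the minimum, since with none they were -0.081 for miR-182 and -0.042 for miR-708, and with a minimum of 1 FPKM in control cultures the miR-182 median was -0.091. Genes not tested in any comparison were Abcb1b, Abca6, Abcb5 and Abcc9, and Abcc2 was not tested in the miR-203 comparison.

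**Figure D2:**
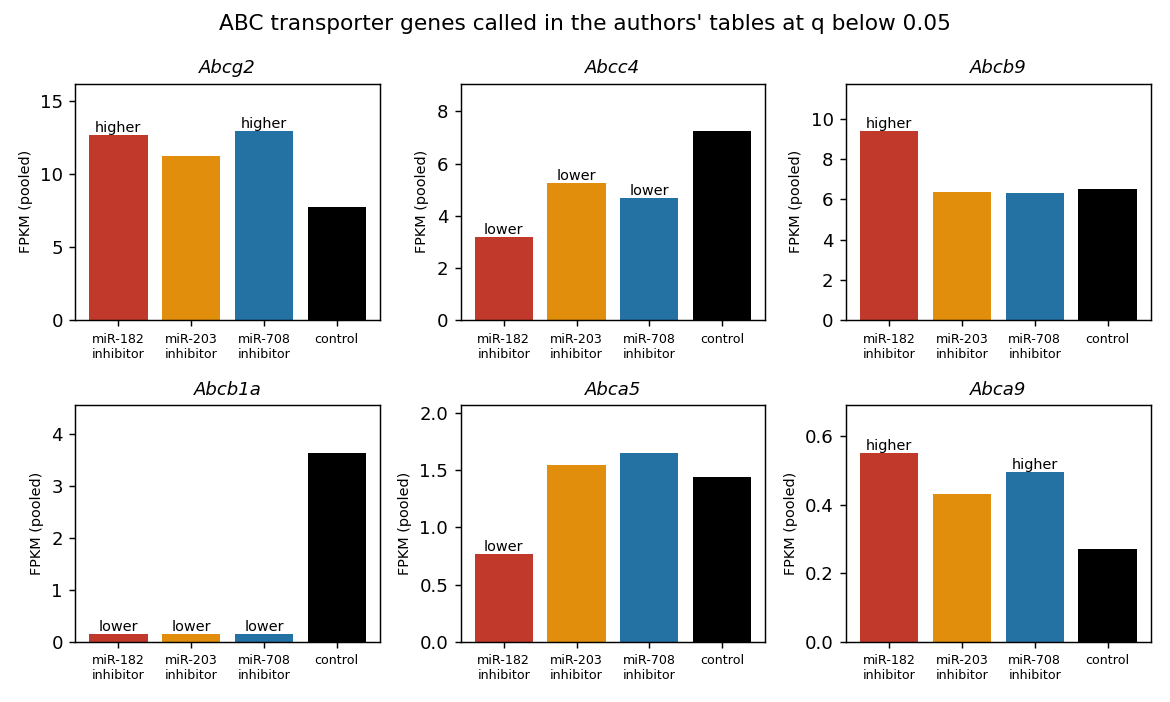
Pooled FPKM of the 6 members called in the authors' tables, 1 panel per gene, with bars for the miR-182, miR-203 and miR-708 inhibitor groups and for control cultures; the words above bars are the authors' calls against the control. Abcb1a is near the baseline in every inhibitor group, and Abca5 is lower than control cultures only with the miR-182 inhibitor, at 0.762 FPKM against 1.44 FPKM.

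Abcb1a, which encodes P-glycoprotein, an exporter of many drugs and lipophilic compounds (chr5:8660076-8748575 of mm10), was almost lost with each inhibitor. It stood at 0.140 FPKM with the miR-182 inhibitor, 0.153 FPKM with the miR-203 inhibitor and 0.144 FPKM with the miR-708 inhibitor, against 3.64 FPKM in control cultures. The levels were therefore 26.0-fold, 23.8-fold and 25.2-fold lower, with q = 0.00176 in each of the authors' deposited tables, the smallest q they hold. The inhibitor values lie far below 1 FPKM at unknown depth, so the size of these folds is uncertain. The deposited log2 ratios were -4.70, -4.57 and -4.66, and with 0.1 FPKM added to each value they were -3.96, -3.89 and -3.94. Among genes called lower at 1 FPKM or more in either group, Abcb1a had the lowest ratio of 863 genes for miR-182, of 333 for miR-203 and of 412 for miR-708, and among all measured genes 1 gene without a call lay lower in each comparison. The next lowest were Dlg2, 11.5-fold lower with the miR-182 inhibitor, 2610204G22Rik, 5.71-fold lower with the miR-203 inhibitor, and Dlg2, 4.60-fold lower with the miR-708 inhibitor. On the log2 scale with 1 FPKM added, Abcb1a ranked 7, 1 and 1 in those sets. It passed the minimum of 1 FPKM only through its control value, so these ranks describe the same difference and add no support to it. With no minimum its ratio was also the lowest, of 896, 361 and 436 genes called lower. The 3 inhibitor groups gave nearly one level and only the control value stood apart, and with pooled values it cannot be seen whether both control samples carried it.

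Its neighbours on chromosome 5 did not share the size of this difference. Abcb1b, the close copy of Abcb1a that also makes P-glycoprotein in mice, stood at 0.184, 0.150 and 0.180 FPKM with the miR-182, miR-203 and miR-708 inhibitors and 0.0641 FPKM in control cultures and was not tested. Reads that fit both copies may have been divided between them, so the sum of the pair is of use. It was 0.324, 0.303 and 0.324 FPKM, against 3.70 FPKM in control cultures, or 11.4-fold, 12.2-fold and 11.4-fold lower. Within 300 kb, Slc25a40, a mitochondrial carrier, fell with the miR-182 (6.13 FPKM) and miR-203 (6.94 FPKM) inhibitors and was not called with the miR-708 inhibitor (7.78 FPKM), against 10.2 FPKM in control cultures. Crot, a peroxisomal acyl transferase, fell with the miR-182 inhibitor, to 16.2 FPKM against 22.9 FPKM in control cultures, and Dbf4, the activator of a replication kinase, stood higher with each inhibitor (3.37, 2.98 and 3.39 FPKM, against 2.29 FPKM in control cultures), as a rise called for miR-182 and miR-708. Rundc3b and Adam22 were at or below 0.201 FPKM in every group and were not tested.

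**Figure D3:**
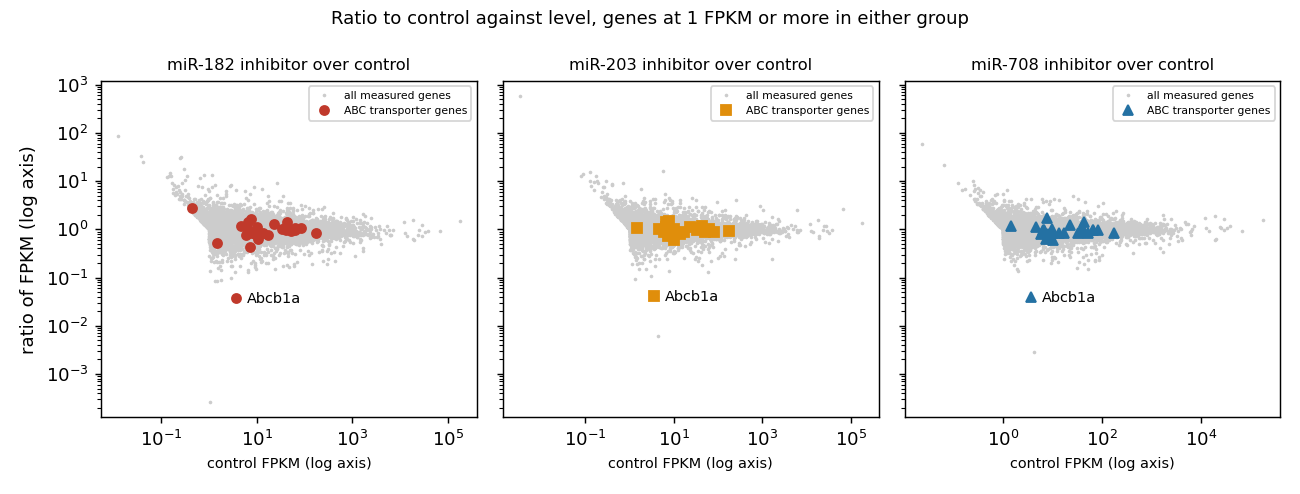
Ratio of inhibitor to control FPKM (log axis) against control FPKM (log axis) for all genes tested and at 1 FPKM or more in either group (grey) and for the ABC transporter genes (coloured), 1 panel per inhibitor. Abcb1a lies at ratios of 0.0385, 0.0420 and 0.0396 with the miR-182, miR-203 and miR-708 inhibitors, below the rest of the family and below every gene called lower, while 1 grey gene without a call lies lower still in each panel.

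Because P-glycoprotein and Abcg2 are abundant in capillary endothelium, the endothelial markers are set beside them. Of 5 (Pecam1, Cdh5, Kdr, Tek and Egfl7), only Egfl7 reached 1 FPKM, and the sum was 30.9, 22.7 and 25.5 FPKM with the miR-182, miR-203 and miR-708 inhibitors, against 23.6 FPKM in control cultures. Pecam1, Cdh5, Kdr and Tek stayed below 1 FPKM in every group. Cdh5 rose with the miR-182 inhibitor, to 0.627 FPKM against 0.334 FPKM in control cultures, and Pecam1 with the miR-708 inhibitor, to 0.839 FPKM against 0.318 FPKM in control cultures. The macrophage list (6 markers with a row, of which Cd68 and Lyz2 reached 1 FPKM) summed to 4.58, 6.86 and 5.57 FPKM against 7.62 FPKM in control cultures, with Lyz2 called lower for miR-182. Smooth muscle and pericyte markers summed to 32.5, 33.5 and 29.8 FPKM against 30.9 FPKM in control cultures, and 4 of 6 reached 1 FPKM. Among them Mylk was called higher and Cspg4 lower with every inhibitor, and the pericyte marker Rgs5 stayed at or below 0.146 FPKM. Myh11 rose with the miR-182 inhibitor, to 0.455 FPKM against 0.267 FPKM in control cultures. Alas2, for red blood cells, and Krt19, for mesothelium, were the single genes of their lists with a row, with sums of 1.34, 0.981 and 1.27 FPKM against 0.741 FPKM and of 8.77, 7.27 and 7.71 FPKM against 5.56 FPKM in control cultures. Krt19 rose with the miR-182 inhibitor, and Alas2 was not called in any comparison. The part of any of these marker differences, precursor and brown fat included, in the transporter values was not tested.

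Abcc4, or MRP4, which exports cyclic AMP, cyclic GMP and prostaglandins (chr14:118482691-118706219), fell with each inhibitor. It stood at 3.17, 5.25 and 4.66 FPKM with the miR-182, miR-203 and miR-708 inhibitors, against 7.25 FPKM in control cultures. That is 2.28-fold, 1.38-fold and 1.56-fold lower, with q = 0.00176, q = 0.00706 and q = 0.00176 in the authors' deposited tables. The miR-182 group was the lowest of the 4, and the difference between inhibitors was not tested. The single miR-708 site shown above lies in its UTR, which held no miR-182 or miR-203 site. The part of that site in the Abcc4 values was not tested.

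Abcg2, known as breast cancer resistance protein, which exports drugs, urate and porphyrins (chr6:58584522-58692869), rose with the miR-182 and miR-708 inhibitors. Its levels were 12.7, 11.2 and 12.9 FPKM with the miR-182, miR-203 and miR-708 inhibitors, against 7.70 FPKM in control cultures. The ratios were 1.64, 1.46 and 1.68, with q = 0.0442, q = 0.227 and q = 0.0272 in the authors' deposited tables, so the miR-203 value, which missed the threshold, was of nearly the same size as the others. Its call for miR-182 lies close to the threshold and is lost at q below 0.01, as is that for miR-708.

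The other exporters of drugs and conjugates were not called. Abcc5 stood at 86.6, 71.0 and 81.6 FPKM with the miR-182, miR-203 and miR-708 inhibitors and 82.6 FPKM in control cultures. Abcc1, the glutathione conjugate exporter MRP1, stood at 11.4, 11.0 and 11.6 FPKM against 13.6 FPKM, and its relative Abcc10 at 7.23, 7.84 and 6.50 FPKM against 9.03 FPKM in control cultures. All inhibitor values of these 2 were below the control value, and the smallest q in the authors' deposited tables was 0.0786, for Abcc10 with the miR-708 inhibitor. Abcc2, a conjugate exporter of liver and kidney, had 1.21, 0.281 and 0.802 FPKM against 0.437 FPKM in control cultures. It counted as measured for miR-182 only because its inhibitor value passed 1 FPKM. Abcc3, a conjugate exporter, stood at 0.510, 0.429 and 0.680 FPKM against 0.345 FPKM in control cultures, and Abcb5 at 0.0430, 0.173 and 0.151 FPKM against 0.0551 FPKM in control cultures.

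**Figure D4:**
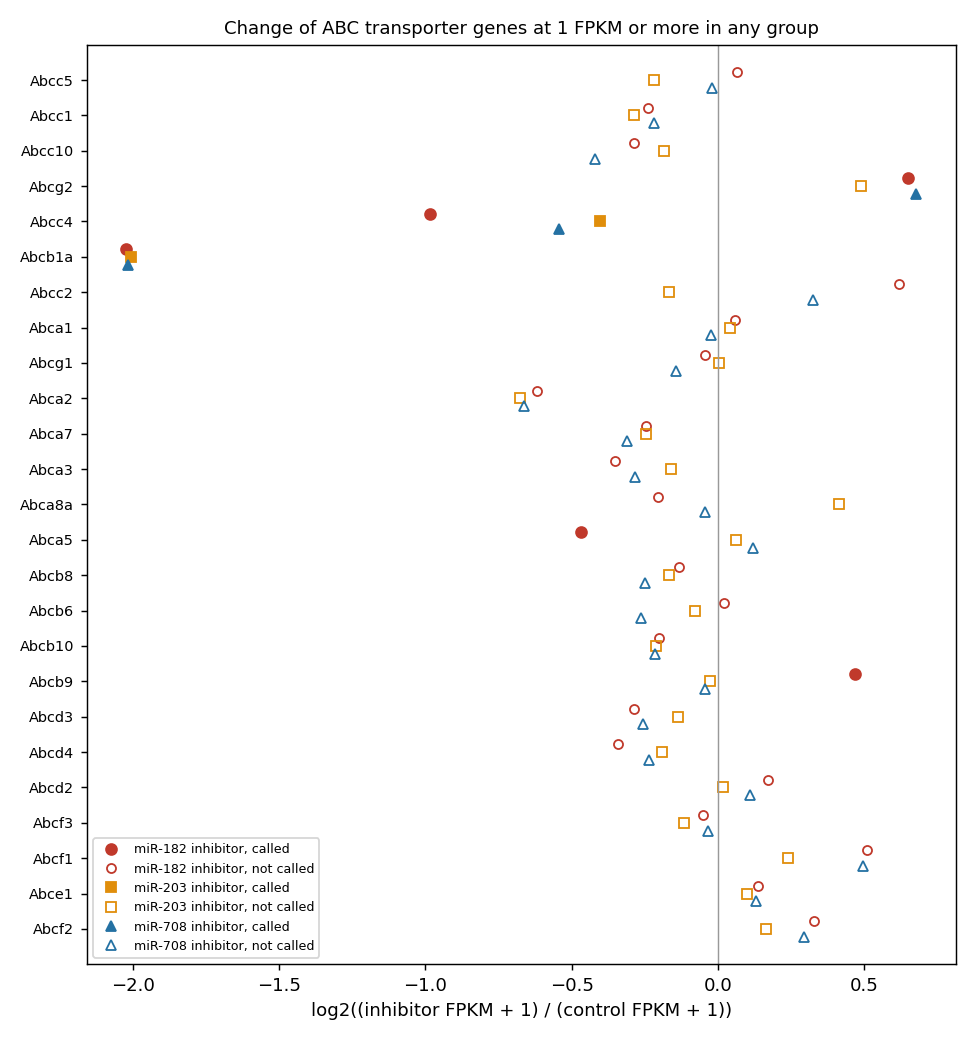
Log2 of inhibitor over control FPKM, each with 1 added, for 25 members at 1 FPKM or more in any group, with filled symbols for genes called in the authors' tables and open symbols for the rest. Abcb1a lies near -2.02 in all 3 comparisons, Abcc4 between -0.98 and -0.40, and Abcg2 between 0.49 and 0.68.

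Sterol and phospholipid transporters gave no call for any of 7 tested members in any of the authors' deposited tables. With 14.6%, 7.23% and 7.56% of all tested genes called in the miR-182, miR-203 and miR-708 comparisons, no call among so few genes says little about the group, and the same holds for the smaller groups without a call described further on. Abca1, which loads cholesterol onto apolipoprotein A-I, stood at 66.9, 66.2 and 63.2 FPKM with the miR-182, miR-203 and miR-708 inhibitors and 64.2 FPKM in control cultures. Abcg1, which passes cholesterol to high-density lipoprotein, stood at 38.8, 40.2 and 36.1 FPKM and 40.02 FPKM in control cultures. For both, the 4 values lay within 1.11-fold of the control. Abca2, a lysosomal and endosomal lipid transporter, lay farthest from the control among uncalled members at 1 FPKM or more in control cultures, at 6.37, 6.09 and 6.16 FPKM against 10.3 FPKM in control cultures. Those levels were 1.62-fold, 1.69-fold and 1.68-fold lower, with q between 0.118 and 0.203 in the authors' deposited tables. Abca7, a phospholipid transporter, stood at 6.56, 6.56 and 6.23 FPKM against 7.97 FPKM, and Abca3, which fills lamellar bodies with lipid in lung, at 4.48, 5.26 and 4.75 FPKM against 5.99 FPKM in control cultures. The inhibitor values of these genes all lay on the lower side, without a call. The retinal transporter Abca4, at 0.149, 0.280 and 0.151 FPKM against 0.517 FPKM in control cultures, and Abcg4, at 0.325, 0.283 and 0.574 FPKM against 0.595 FPKM, were also uncalled.

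Genes that act with these transporters are set beside them. Of 16 genes of sterol efflux and the liver X receptor, the sterol sensor that switches on Abca1 and Abcg1, the authors' deposited tables called 2 higher and 1 lower for miR-182, and none higher and 1 lower for miR-203 and for miR-708. The lower one was Npc1, which lets cholesterol out of lysosomes, at 12.3, 21.6 and 19.7 FPKM with the miR-182, miR-203 and miR-708 inhibitors against 44.9 FPKM in control cultures. Apoe, a carrier of exported cholesterol, rose with the miR-182 inhibitor, to 676 FPKM against 448 FPKM in control cultures, and so did the receptor partner Rxra, at 29.3 FPKM against 19.1 FPKM in control cultures. The receptors Nr1h3 and Nr1h2 were not called in any comparison. The share called was 18.8%, 6.25% and 6.25% with the miR-182, miR-203 and miR-708 inhibitors, beside 14.6%, 7.23% and 7.56% of all tested genes. Median log2 ratios of the list were 0.014, -0.019 and -0.052.

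The Abca5 to Abca10 cluster on chromosome 11 holds neighbouring transporters of poorly known substrates, and its members went different ways. Abca5, a lysosomal member (chr11:110269368-110337716), fell with the miR-182 inhibitor. It stood at 0.762, 1.55 and 1.65 FPKM with the miR-182, miR-203 and miR-708 inhibitors, against 1.44 FPKM in control cultures, 1.88-fold lower for miR-182 with q = 0.00176 in the authors' deposited table. With the other 2 inhibitors it lay slightly above the control without a call, and the difference between the inhibitors was not tested. Abca9 (chr11:110100748-110168196) rose with the miR-182 and miR-708 inhibitors, at 0.551, 0.430 and 0.496 FPKM with the miR-182, miR-203 and miR-708 inhibitors against 0.272 FPKM in control cultures. Its ratios were 2.03, 1.58 and 1.83, with q = 0.00176, q = 0.0565 and q = 0.00463 in the authors' deposited tables, and all 4 levels are below 1 FPKM. Abca8a, the highest of the cluster, stood at 5.66, 9.23 and 6.45 FPKM against 6.67 FPKM in control cultures, with no call. Abca8b stood at 0.469, 0.470 and 0.570 FPKM against 0.587 FPKM in control cultures, and Abca6 at 0.361, 0.226 and 0.296 FPKM against 0.239 FPKM in control cultures.

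The 5 B members of mitochondria and lysosomes, which work as pairs, were all tested and held 1 called gene, for miR-182. That is 20% of them, beside 14.6% of all tested genes. None was called for miR-203 or miR-708, beside 7.23% and 7.56% of all tested genes. With so few genes, these shares are not read as differing. Abcb9, which carries peptides into lysosomes (chr5:124061529-124095798), rose with the miR-182 inhibitor and not with the others. Its levels were 9.41, 6.39 and 6.30 FPKM with the miR-182, miR-203 and miR-708 inhibitors, against 6.52 FPKM in control cultures, a ratio of 1.44 for miR-182 with q = 0.0333 in the authors' deposited table. That call is lost at q below 0.01. Abcb8, which takes part in mitochondrial iron handling, stood at 47.4, 46.3 and 43.6 FPKM against 52.0 FPKM in control cultures, without a call. Abcb6, a porphyrin transporter, stood at 33.5, 31.2 and 27.3 FPKM against 33.0 FPKM in control cultures. Abcb10, which supports haem making, stood at 8.96, 8.90 and 8.87 FPKM against 10.5 FPKM in control cultures. In the authors' tables it shares its locus with 97 other genes, so its value and its missing call are uncertain. Abca3 and Abcc10 also share a locus, each with 1 other gene.

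Relatives and partners of these B members are given next. Tap1, an ABC protein that feeds peptides to class I histocompatibility molecules and is close to Abcb9, rose with each inhibitor, to 12.7, 8.67 and 9.07 FPKM with the miR-182, miR-203 and miR-708 inhibitors against 5.14 FPKM in control cultures, whereas its partner Tap2 was not called. Of 16 genes of haem and iron-sulphur cluster making, the authors' deposited tables called 2 lower for miR-182, and 1 lower for miR-203 and for miR-708, and none higher. These are 12.5%, 6.25% and 6.25% of the list, close to the 14.6%, 7.23% and 7.56% of all tested genes. Slc25a37, the mitochondrial iron importer mitoferrin, which works beside Abcb10 in red cell precursors, fell in each comparison, to 4.66, 5.09 and 5.30 FPKM against 7.75 FPKM in control cultures. Hscb, an iron-sulphur co-chaperone, fell with the miR-182 inhibitor, to 14.2 FPKM against 20.4 FPKM in control cultures.

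None of the D members, which sit in peroxisomes and lysosomes, was called in the authors' deposited tables. Abcd3 was 1.22-fold, 1.10-fold and 1.20-fold lower with the miR-182, miR-203 and miR-708 inhibitors. Abcd2, an importer of very long-chain fatty acids, stood at 5.32, 4.68 and 5.06 FPKM against 4.61 FPKM in control cultures. Abcd4, a lysosomal cobalamin transporter, stood at 13.1, 14.6 and 14.1 FPKM against 16.8 FPKM in control cultures, with q = 0.0640 for miR-182 in the authors' deposited table. Abcd2 lay above the control and Abcd3 and Abcd4 below it with every inhibitor.

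Of 13 partner genes of peroxisomal fatty acid import and oxidation, the authors' deposited tables called 1 higher and 2 lower for miR-182 and 1 lower for miR-203 and for miR-708. These are 23.1%, 7.69% and 7.69% of the list, beside 14.6%, 7.23% and 7.56% of all tested genes. Acox3, an oxidase of branched-chain fatty acids, fell in each comparison, to 20.5, 24.4 and 22.2 FPKM with the miR-182, miR-203 and miR-708 inhibitors against 37.9 FPKM in control cultures. Crot fell and Ehhadh, the bifunctional oxidation enzyme, rose with the miR-182 inhibitor, Ehhadh to 53.3 FPKM against 40.7 FPKM in control cultures. The peroxisome assembly factors Pex3, Pex16 and Pex19 were not called.

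Nor were any of the 4 soluble members that act on ribosomes called in the authors' deposited tables. Abcf1, a partner of initiation factor eIF2, stood at 62.1, 51.3 and 61.6 FPKM with the miR-182, miR-203 and miR-708 inhibitors against 43.3 FPKM in control cultures. Its ratios of 1.43, 1.19 and 1.42 had q between 0.433 and 0.841 in the authors' deposited tables, and the paired miR-708 sites shown above lie in its UTR. Abcf2 stood at 29.1, 25.9 and 28.4 FPKM against 23.0 FPKM, Abce1, which splits ribosomes after termination, at 44.2, 43.02 and 44.0 FPKM against 40.1 FPKM, and Abcf3 at 61.9, 59.2 and 62.7 FPKM against 64.2 FPKM in control cultures. Of 9 genes of ribosome recycling and eIF2 control, 1 fell, Hbs1l with the miR-182 inhibitor, and none was called with the other 2 inhibitors, so 11.1% of the list was called for miR-182, beside 14.6% of all tested genes. Hbs1l, a factor for stalled ribosomes, stood at 21.3 FPKM against 28.7 FPKM in control cultures.

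The last member, Abcc9, the SUR2 subunit of ATP-sensitive potassium channels and a marker of pericytes, stood at 0.396, 0.349 and 0.281 FPKM against 0.191 FPKM in control cultures and was not tested. The channel pore Kcnj8 was at or below 0.123 FPKM in every group. A list of 12 genes holds NRF2 itself (Nfe2l2), its partner Keap1 and genes that respond to NRF2. NRF2 acts in oxidative and electrophile stress and can also raise MRP exporters. Of these 12 genes, 1 fell in each comparison and none rose, 8.33% beside 14.6%, 7.23% and 7.56% of all tested genes. That gene was Hmox1, haem oxygenase, at 181.8, 310 and 274 FPKM with the miR-182, miR-203 and miR-708 inhibitors against 559 FPKM in control cultures, whereas Nqo1, Gclc and Gclm were not called.

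Promoters are shown for the members that the authors' tables called in one direction in more than 1 comparison and whose RefSeq start lies within 100 bases of the start of the authors' locus, Abcc4, Abcg2 and Abca9 (RefSeq, GRCm38.p6). Each runs from 250 bases before to 50 bases after the start. They lie at chr14:118706170-118706469 (minus strand), chr6:58584283-58584582 (plus strand) and chr11:110168104-110168403 (minus strand), and are printed on the strand of the gene. Capitals mark, on either strand, a GC box (GGGCGG), an E-box (CACGTG), an antioxidant response element (TGACNNNGC) or a xenobiotic response element (GCGTG), and run together where motifs touch.
Abcc4: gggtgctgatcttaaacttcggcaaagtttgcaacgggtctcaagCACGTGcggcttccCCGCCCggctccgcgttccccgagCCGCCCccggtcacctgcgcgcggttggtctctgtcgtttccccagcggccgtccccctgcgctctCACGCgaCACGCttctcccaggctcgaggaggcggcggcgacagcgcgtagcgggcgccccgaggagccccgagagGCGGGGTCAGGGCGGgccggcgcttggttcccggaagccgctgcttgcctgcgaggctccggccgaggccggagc
Abcg2: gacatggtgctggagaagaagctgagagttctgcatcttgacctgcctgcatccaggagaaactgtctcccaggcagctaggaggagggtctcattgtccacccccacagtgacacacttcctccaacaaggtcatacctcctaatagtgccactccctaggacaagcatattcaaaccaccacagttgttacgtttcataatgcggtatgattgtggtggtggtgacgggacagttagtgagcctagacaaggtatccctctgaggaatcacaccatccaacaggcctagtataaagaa
Abca9: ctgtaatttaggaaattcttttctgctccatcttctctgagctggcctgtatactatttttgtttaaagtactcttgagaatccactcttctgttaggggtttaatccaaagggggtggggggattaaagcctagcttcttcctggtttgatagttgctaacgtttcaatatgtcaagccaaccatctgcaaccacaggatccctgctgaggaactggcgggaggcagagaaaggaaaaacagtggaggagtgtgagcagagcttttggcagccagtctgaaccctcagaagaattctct
The Abcc4 window held all 4 motifs (3 GC boxes, 1 E-box, 1 antioxidant and 2 xenobiotic elements), and the printed windows of Abcg2 and Abca9 held none. Over all 32851 promoters of this length, 35.7% held a GC box, 7.15% an E-box, 12.4% the antioxidant element and 32.4% the xenobiotic element. Of 20 members with a start within 100 bases of the authors' locus, 12, 5, 2 and 7 held them. Abcg2 has 2 further RefSeq starts, and the data do not show which is used. The one 12150 bases from the start of the authors' locus has 2 GC boxes in its window, and the one 56024 bases from it has 4 GC boxes and 1 xenobiotic element. Abcc4 has a further start 29288 bases from the start of its locus, whose window holds 1 antioxidant element and none of the other motifs. The RefSeq start of Abcb1a lies 92985 bases from the start of the authors' locus, so its promoter is not printed.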

How the data were processed

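Messenger RNA was sequenced from 8 samples in 4 groups of 2. TopHat2 2.0.9, Cuffdiff 2.1.1 and the build mm10 come from the submitters' processing notes. Annotation, strand use and scaling: not given in the sources used here. From the authors come 3 tables of 18933 genes, with deposited FPKM (fragments scaled for transcript length and library size) as 1 value per group, taken here as pooled over its 2 samples. Deposited beside them, per gene, are a log2 fold change, its p-value and its q-value. Control FPKM were identical in the 3 tables. Genes with p and q of exactly 1 were taken as not tested. Depth per sample is unknown, so no counting interval or SD is given.

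From these files, log2((inhibitor + 1)/(control + 1)), with a pseudocount of 1 FPKM, and plain FPKM ratios were computed in Python 3.11.15 with pandas 2.3.3. Measured genes are those tested and at 1 FPKM or more in either group. Calls are the authors', at q below 0.05, since pooled values allow no new test. Members were the genes whose symbols match Abc, a letter from a to g and a digit. The members and lists were chosen with earlier results of these data known. Genes named with values were every member called at least once, the 8 members highest in control cultures and the 4 uncalled members at 1 FPKM or more with the largest change. Any further member was named with its values already known. Seed matches were read from the GENCODE M21 transcript with the longest coding sequence per gene. Ratio, adjustment and sequence-search code was tested on simulated data. Alternatives were other q thresholds, minimums and pseudocounts, centring, and an adjustment within each table. Some members enter the counts and medians but are not reported here by name.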

Additional observations from a re-analysis of the deposited data

How the results depend on the processing

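Counts of called members stayed within 1.5 times of 6, 2 and 4 (miR-182, miR-203, miR-708) under every alternative tried, from 4 to 9, 2 to 3 and 3 to 6. Abcb1a and Abcc4 stayed called lower in all of them. These alternatives reuse the same deposited p-values, and Abcb1a has the smallest deposited q in each comparison. It passed the minimum of 1 FPKM only through its control value. That Abcb1a stayed called was therefore fixed in advance and adds no support. The adjustment within 1 table added Abca3, Abcd4 and Abcf2 for miR-182 and Abca9 for miR-203. For the median log2 ratio, no minimum gave -0.081, -0.11 and -0.042, and centring on all measured genes gave -0.037, -0.084 and -0.075. A minimum of 1 FPKM in control cultures gave -0.091 for miR-182, a minimum of 5 FPKM gave -0.11 for miR-203, and a pseudocount of 0.1 FPKM gave -0.099 for miR-708. The cause of these shifts was not tested. Single-gene ratios were recomputed with a pseudocount of 0.1 FPKM and with centring, 102 values in all. Another pseudocount cannot turn a sign, and centring moved a value by at most 0.019. That 101 kept their sign was therefore largely fixed in advance and says little. The exception, Abcc5 with the miR-708 inhibitor, was close to 0 and not called. No paired analysis was possible because each group has 1 pooled value, and no replicate could be left out for the same reason. Unknown depth limits the low values most, those of Abca9 and the inhibitor values of Abcb1a among them.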
